A study of Mus musculus with 12 samples.

Results

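The 8 genes described here encode the main Jun, Fos and Atf3 members of the AP-1 transcription factors (Jun, Junb, Jund, Fos, Fosb, Fosl1, Fosl2 and Atf3). They were taken by gene symbol from the deposited table, and 8 of its 25124 entries matched. RNA was profiled in 12 polyA libraries of MC3T3-E1, a line of mouse osteoblast precursors from skull bone, with 3 libraries in each of 4 groups. Every culture was kept in 2.5% serum for 30 min. The untreated group then received neither factor, the TNFa group TNFa at 10 ng/mL, the BMP4 group BMP4 at 10 ng/mL for 3 h, and the TNFa+BMP4 group TNFa for 30 min before BMP4 was added. Because the characteristics field lists 3 h for TNFa as well, how long cells were exposed to TNFa is uncertain. Treatment time is 0 h for the untreated group, and whether its cells were harvested at the same time as treated cells is uncertain. A difference in harvest time, if there was one, cannot be told apart from treatment in changes from untreated cells and in the departures built on them. An unexplained "p65" stands in the titles of the TNFa libraries. Replicate 1 of each group formed batch 1 and replicates 2 and 3 formed batch 2, so that each batch held every group. Nothing in the labels says that replicates were separate cultures, and the p-values therefore measure only the spread between these libraries, which may be technical.

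Library totals were 13.7 M to 15.5 M tags, with 20.6 M in TNFa+BMP4 replicate 2. Of 8 osteoblast markers 5 had a mean log2 value of at least 4, among them Runx2 at 10.31, Sp7 at 5.29 and Col1a1 at 17.26. Col1a2 (17.49) and Spp1 (12.54) were also above it. The markers Alpl (0.35), Bglap (-0.03) and Ibsp (-1.23) were near or below 0. Among markers of other cell types, 2 of 6 for leukocytes (Cd68, 4.49, and Lyz2, 4.71), 1 of 4 for endothelium (Pecam1, 4.95), 0 of 3 for adipocytes and 1 of 3 for muscle (Acta1, 4.25) reached that level. The defining leukocyte genes Adgre1 and Cd3e were listed at 0 in every library. The chondrocyte genes Col2a1 (14.95) and Sox9 (12.09) were high in these cells, while Acan was listed at 0. These are bulk samples, in which fewer cells of a type and less RNA per cell cannot be told apart.

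AP-1 binds DNA as a pair of proteins with a basic region and a leucine zipper. Jun proteins pair with each other or with a Fos protein, Fos proteins need a partner, and Atf3 pairs with Jun proteins or with itself. Most of these genes belong to the immediate-early class, which needs no new protein to be transcribed after a stimulus, and their products differ in how strongly they activate targets: Jun, Fos and Fosb carry strong activation domains, whereas Fosl1 (Fra-1), Fosl2 (Fra-2) and Junb activate more weakly or in some settings repress. In the skeleton Fosl1, Fosl2, Junb and a short form of Fosb are known to bear on bone formation. TNFa reaches AP-1 through the MAP kinases JNK and p38 and acts in parallel through NF-kB, while BMP4 signals through Smad proteins and can also activate MAP kinases.

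The genes lie apart in the genome, and the positions below are those of the file (mm10). Jun (NM_010591, chromosome 4, 95049036 to 95052222), Junb (NM_008416, chromosome 8, 84976909 to 84978748) and Jund (NM_001286944, chromosome 8, 70697739 to 70700616) each consist of 1 exon in GENCODE. The transcripts of Fos (NM_010234, chromosome 12, 85473890 to 85477274), Fosb (NM_008036, chromosome 7, 19302696 to 19310045), Fosl1 (NM_010235, chromosome 19, 5447698 to 5455938), Fosl2 (NM_008037, chromosome 5, 32136472 to 32157839) and Atf3 (NM_007498, chromosome 1, 191170297 to 191183333) have 4 exons each. Of the 1699 exonic bases of Fosl1, 1163 (68.5%) are shared with an exon of Ccdc85b on the opposite strand. Antisense transcripts cover 232 bases (7.29%) of the Jun exon (Junos) and 543 bases (18.9%) of the Jund exon (Gm11175). The file header names no strand setting for the counting, so reads of these pairs may not have been told apart.

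Promoter sequences of 7 of the 8 genes were matched by symbol in RefSeq (GRCm38.p6), each with a start equal to that of the file; Fosl1 was not matched. The 250 bases before the start are shown for the 3 genes that BMP4 raised, because all of them also rose with both factors. Capitals mark matches, on either strand, to any of 5 motifs that were searched: the AP-1 site TGANTCA, the cAMP response element TGACGTCA, the GC-rich Smad element GGCGCC, the NF-kB consensus and the CArG box of the serum response factor. The strands are minus for Junb (chr8:84978749-84978998) and plus for Fos (chr12:85473640-85473889) and Fosl2 (chr5:32136222-32136471), and each sequence is read towards the gene.
Junb: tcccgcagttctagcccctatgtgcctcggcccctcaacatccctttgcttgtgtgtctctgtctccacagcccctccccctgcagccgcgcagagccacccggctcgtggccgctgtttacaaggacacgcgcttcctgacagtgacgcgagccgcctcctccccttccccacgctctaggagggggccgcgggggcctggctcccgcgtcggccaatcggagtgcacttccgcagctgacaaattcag
Fos: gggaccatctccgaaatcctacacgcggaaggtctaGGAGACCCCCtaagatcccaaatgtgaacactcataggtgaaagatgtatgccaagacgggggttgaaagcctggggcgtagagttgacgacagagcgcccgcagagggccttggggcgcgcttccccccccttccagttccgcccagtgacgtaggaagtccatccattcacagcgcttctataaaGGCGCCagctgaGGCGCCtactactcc
Fosl2: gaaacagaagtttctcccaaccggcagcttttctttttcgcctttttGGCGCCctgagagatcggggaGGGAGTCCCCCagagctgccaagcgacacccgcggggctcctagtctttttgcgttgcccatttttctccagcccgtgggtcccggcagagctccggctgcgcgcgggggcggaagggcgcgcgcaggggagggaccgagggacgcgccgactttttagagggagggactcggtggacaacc
Positions are counted back from the first base of the gene. In Fos the capitals are a match to the NF-kB consensus at positions -214 to -205 and a pair of Smad elements, at -27 to -22 and -15 to -10. Fosl2 has a Smad element at -203 to -198 and overlapping NF-kB matches that run from -182 to -172. The Junb window holds none of these letters. Fosb, not raised by either factor, has an NF-kB match and a Smad element as well, and the windows of Jun, Jund and Atf3 have no match. Among 32841 windows of the same length, 7.25% hold the NF-kB consensus, 9.59% the Smad element, 6.75% the AP-1 site, 1.55% the cAMP response element and 1.47% the CArG box. A match is a description of the letters and not a binding site.

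All 8 genes passed the minimum mean log2 value of 4 and were tested in a limma model with a batch term, in which p-values were adjusted over 11765 genes and a gene was called at an adjusted p under 0.05. TNFa raised 3 of the 8 (Junb, Fosl1 and Fosl2) and lowered Fosb, where 9.16% of all tested genes were called higher and 6.32% lower. BMP4 raised 3 (Junb, Fos and Fosl2) and lowered Jund, beside 6.75% and 5.47% of all genes. With both factors 4 rose (Junb, Fosl1, Fosl2 and Fos) and 2 fell (Jund and Fosb), beside 16.8% and 14.4%. BMP4 added to TNFa raised 3 (Junb, Fos and Fosl2) and lowered Jund, beside 5.47% and 6.2% of all genes, and TNFa in BMP4-treated cells raised 4 (Junb, Fosl1, Fosl2 and Atf3) and lowered Fos, beside 8.78% and 7.41%. In either direction 15.5% of all genes were called for TNFa, 12.2% for BMP4, 31.2% for both, 11.7% for BMP4 added to TNFa and 16.2% for TNFa in BMP4-treated cells, and 4, 4, 6, 4 and 5 of the 8 members. The authors' deposited table calls 3 members for TNFa (6.21% of its entries), 3 for BMP4 (3.44%), 5 for both (10.1%), 4 for BMP4 relative to TNFa (7.96%), 5 for both relative to TNFa (4.98%) and 5 for both relative to BMP4 (5.8%). These shares are over all 25124 entries, of which 7423 were 0 in every library. They are therefore not comparable with the shares over the 11765 tested genes. The median log2 change over the 8 genes was 0.19 for TNFa, 0.09 for BMP4 and 0.28 for both, against medians within 0.01 of 0 over all genes. The 3 comparisons share the untreated libraries. Changes are given below as log2 fold change ± SE from 3 libraries per group, and levels as deposited log2 values. Changes of Fos, Fosb and Atf3, and to a lesser degree of Junb and Fosl1, are smaller on this scale than in the authors' deposited table, and the reason was not tested.

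**Figure D1:**
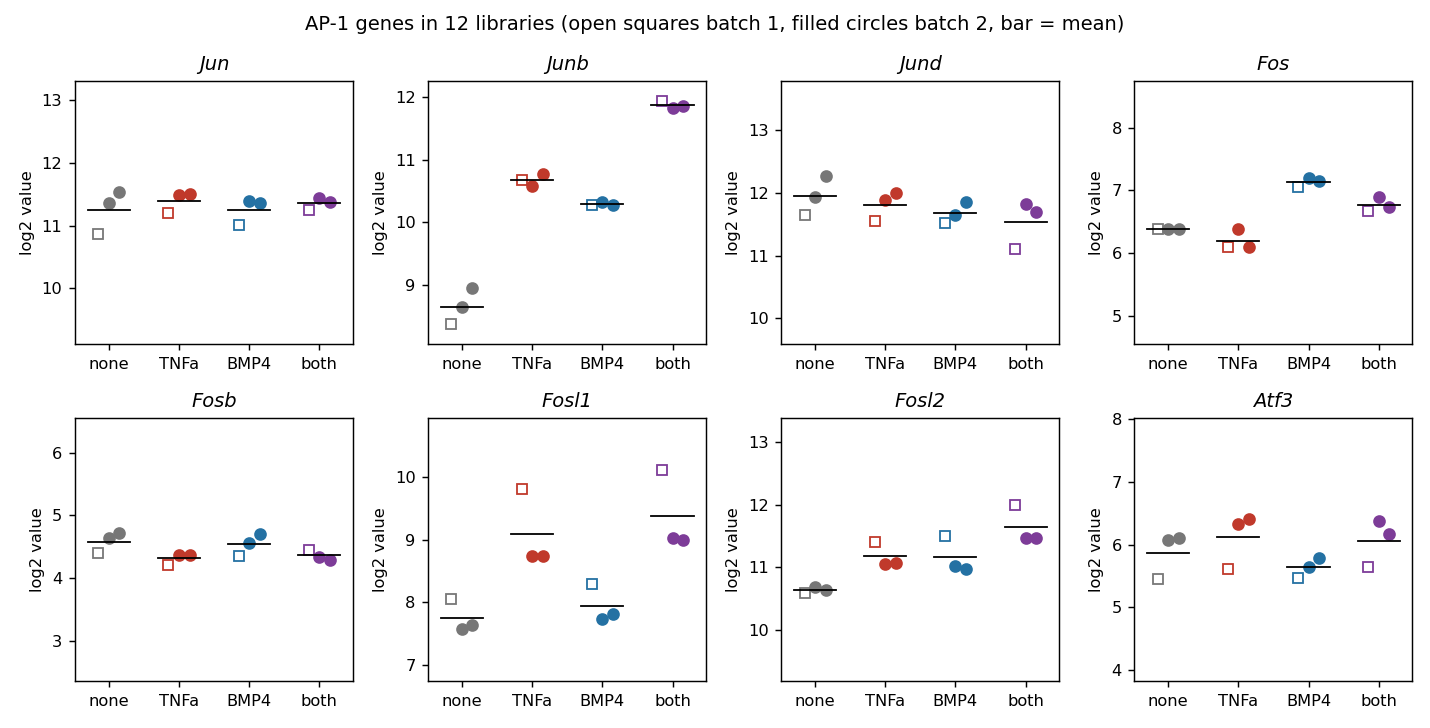
Deposited log2 values (vertical axis, each panel spanning the same range) of the 8 genes in the 4 groups (none is untreated), with 1 point per library (open squares batch 1, filled circles batch 2) and a bar at the group mean. Junb rises from 8.37 to 8.95 in untreated libraries to 11.82 to 11.94 with both factors, while Jun stays between 10.88 and 11.54.

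Among the Jun genes, Junb carried the response at the time sampled. No earlier time was sampled, so a rise that had already passed would not have been seen for any member. Its untreated values were 8.37, 8.65 and 8.95. They were 10.67, 10.57 and 10.77 with TNFa, 10.27, 10.33 and 10.28 with BMP4, and 11.94, 11.82 and 11.85 with both. The 4 groups did not overlap and their order was untreated, BMP4, TNFa and then both. Of all tested genes, 17.0% did not overlap between TNFa and untreated, 14.6% between BMP4 and untreated and 25.4% between both and untreated. The share was 15.8% for both against TNFa and 17.4% for both against BMP4. TNFa raised Junb by 2.02 ± 0.09 (limma adjusted p = 3.33e-13) and BMP4 by 1.64 ± 0.09 (limma adjusted p = 7.17e-11). Adding BMP4 to TNFa raised it by a further 1.20 ± 0.09 (limma adjusted p = 1.10e-08), and TNFa in BMP4-treated cells raised it by 1.58 ± 0.09 (limma adjusted p = 2.84e-11). In the authors' deposited table Junb was lower with BMP4 than with TNFa, by -0.42 (adjusted p = 3.66e-06). All 5 increases of Junb were called in each of the 12 fits that left out 1 library.

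Jun, the founding member and usual partner of Fos, had means of 11.26 ± 0.34 (SD, n = 3) untreated, 11.40 ± 0.17 with TNFa, 11.26 ± 0.22 with BMP4 and 11.36 ± 0.10 with both. The groups overlapped throughout, and no comparison of Jun passed the test. Its change with both factors was 0.10 ± 0.07, with a 95% interval of -0.04 to 0.24, and the change was 0.38 in batch 1 and -0.04 in batch 2. Jund, the Jun protein that is present in resting cells, started highest, at 11.66, 11.94 and 12.27. Its values were 11.52, 11.66 and 11.85 with BMP4 and 11.10, 11.82 and 11.69 with both, and these ranges overlapped the untreated range. With batch in the model Jund fell by 0.28 with BMP4 (SE 0.08, limma adjusted p = 0.0286) and by 0.42 with both (SE 0.08, limma adjusted p = 4.92e-04), and it fell by 0.27 when BMP4 was added to TNFa (SE 0.08, limma adjusted p = 0.0320). The fall with both factors was called in 12 of 12 fits without 1 library but not with no batch term (limma adjusted p = 0.289), and those with BMP4 alone and with BMP4 added to TNFa in 8 and 7 (largest adjusted p 0.168 without BMP4 replicate 2, and 0.242 with an estimate of -0.18 without TNFa+BMP4 replicate 1). The authors' deposited table calls the fall with both (-0.45, adjusted p = 7.12e-06) and not that with BMP4 alone (-0.30, adjusted p = 0.337).

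Among the Fos genes each had a different pattern. Fosl1 responded to TNFa, Fos to BMP4 and Fosl2 to either factor, while Fosb was weakly expressed and fell slightly with TNFa. Fosl1 stood at 8.05, 7.57 and 7.64 untreated and at 9.80, 8.74 and 8.74 with TNFa. With BMP4 it was at 8.29, 7.73 and 7.81, which overlapped the untreated libraries, and with both factors at 10.12, 9.03 and 8.99. Replicate 1, the batch 1 library, was the highest of its group in all 4 groups. TNFa raised Fosl1 by 1.34 ± 0.11 (limma adjusted p = 9.83e-09) and by 1.44 ± 0.11 in BMP4-treated cells (limma adjusted p = 4.04e-09). BMP4 alone gave 0.19 ± 0.11 (limma adjusted p = 0.307), and BMP4 added to TNFa gave 0.28 ± 0.11 (limma adjusted p = 0.102), a difference that the authors' deposited table calls (0.33, adjusted p = 0.00218). The overlapping gene Ccdc85b rose with TNFa as well, by 0.65 ± 0.08 (limma adjusted p = 1.82e-06), from a level of 10.18 to 10.83; whether reads of Ccdc85b entered the Fosl1 values was not tested.

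Fosl2 read 10.59, 10.69 and 10.64 in untreated cells, 11.41, 11.05 and 11.07 with TNFa, and 11.50, 11.02 and 10.98 with BMP4. With both factors it read 11.99, 11.47 and 11.47. The single-factor groups lay above untreated and overlapped each other, and the authors' deposited table gives a TNFa to BMP4 difference of -0.01 (adjusted p = 0.978). Of all tested genes, 17.0% did not overlap untreated with TNFa and 14.6% with BMP4. Either factor raised Fosl2 by a similar estimate, 0.54 ± 0.08 for TNFa (limma adjusted p = 7.71e-05) and 0.53 ± 0.08 for BMP4 (limma adjusted p = 1.93e-04). Both together raised it by 1.00 ± 0.08 (limma adjusted p = 1.21e-08), and each factor added to the other raised it too, by 0.46 ± 0.08 for BMP4 and 0.47 ± 0.08 for TNFa. These 5 increases were called in 12 of 12 fits without 1 library. With no batch term only the increase with both against untreated kept its call (limma adjusted p = 0.00469). The limma adjusted p was then 0.164 for TNFa, 0.273 for BMP4, 0.384 for BMP4 added to TNFa and 0.252 for TNFa in BMP4-treated cells. The libraries with both factors overlapped those with BMP4. Without untreated replicate 1 the estimates were 0.36 for TNFa and 0.35 for BMP4.

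Fos lay at 6.39 in all 3 untreated libraries and at 6.10, 6.39 and 6.09 with TNFa. BMP4 brought it to 7.05, 7.20 and 7.15, above every other library, and the combination to 6.66, 6.90 and 6.74, between untreated and BMP4. Of all tested genes, 14.6% did not overlap between BMP4 and untreated, 25.4% between both and untreated and 17.4% between both and BMP4. BMP4 raised Fos by 0.75 ± 0.09 (limma adjusted p = 3.64e-06) and by 0.57 ± 0.09 in cells that had TNFa (limma adjusted p = 1.12e-04). TNFa alone gave -0.19 ± 0.09 (limma adjusted p = 0.146), and in BMP4-treated cells it lowered Fos by -0.37 ± 0.09 (limma adjusted p = 0.00413). Fos with BMP4 and Jund with TNFa were the 2 members for which the combination was called below a single factor. The authors' deposited fold changes are larger, at 1.28 for BMP4, 0.69 for both and -0.58 for TNFa in BMP4-treated cells (adjusted p = 0.0153).

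Fosb was the weakest of the 8, between 4.20 and 4.71 in all libraries. It fell by 0.27 with TNFa (SE 0.08, limma adjusted p = 0.0320) and by 0.22 with both factors (SE 0.08, limma adjusted p = 0.0477). These calls held in 7 and 4 of the 12 fits without 1 library (largest adjusted p 0.129 without untreated replicate 3 and 0.213 without TNFa+BMP4 replicate 3). With both factors Fosb changed by 0.05 in batch 1 and by -0.36 in batch 2, so the fall was not seen in batch 1, and the estimate was -0.35 without TNFa+BMP4 replicate 1. With the replicate number as a block in place of batch the second call was lost. The authors' deposited table gives -1.26 for TNFa (adjusted p = 0.0537) and -0.92 for both (adjusted p = 0.181), neither of which it calls.

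Atf3, a stress-induced family member that can repress, did not pass the test against untreated cells with either factor. It had 0.24 ± 0.10 with TNFa (limma adjusted p = 0.0960) and -0.24 ± 0.10 with BMP4 (limma adjusted p = 0.112). The BMP4 value was 0.02 in batch 1 and -0.37 in batch 2, where it was called, and leaving out BMP4 replicate 1 or 2 gave -0.38 or -0.14. The untreated values were 5.45, 6.07 and 6.10, those with BMP4 5.47, 5.65 and 5.79, and those with both 5.65, 6.37 and 6.17, so the groups overlapped. Replicate 1 was the lowest library of every group. TNFa in BMP4-treated cells raised Atf3 by 0.43 ± 0.10 (limma adjusted p = 0.00292), a call kept in 12 of 12 fits without 1 library and lost with no batch term (limma adjusted p = 0.627). The authors' deposited table has 1.04 for this comparison (adjusted p = 0.00853) and -1.15 for BMP4 relative to TNFa (adjusted p = 0.00171).

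**Figure D2:**
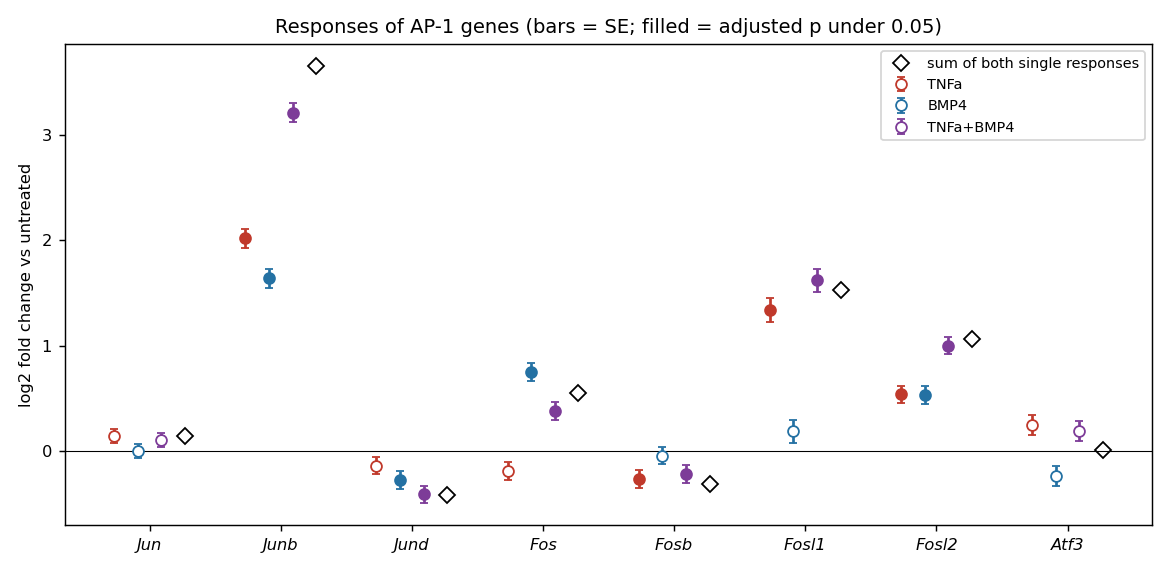
Log2 fold change against untreated (vertical axis) of each gene with TNFa, BMP4 and both, with SE bars, and the sum of the single responses as an open diamond. Filled points passed an adjusted p of 0.05; for Junb the observed 3.22 lies below the sum of 3.66, and for Fosl2 the observed 1.00 lies beside the sum of 1.06.

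Whether the factors add was asked on a pair of scales. On the log2 scale additive responses mean that fold changes multiply, and the departure is the response to both minus the sum of the single responses. On the linear scale additive responses mean that the increases in level sum, and the departure is given in multiples of the untreated level. On the log2 scale none of the 8 genes departed by the test (0 called by limma, with 0.017% of all genes called, 0.0085% higher and 0.0085% lower), although 1 of them, Junb, had an unadjusted p under 0.05. On the linear scale Junb alone of the 8 was called, above the sum, with 0.085% of all genes called, 0.0255% higher and 0.0595% lower.

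TNFa multiplied the level of Junb by 4.06, BMP4 by 3.12 and both by 9.30. Levels that sum would give 6.18, and folds that multiply 12.6, so the observed value fell between these. The departure on the linear scale was 3.12 ± 0.47 untreated levels above the sum (95% interval 2.14 to 4.11, limma adjusted p = 0.0103). On the log2 scale Junb was 0.44 below the product of the folds (estimate -0.44 ± 0.13, interval -0.71 to -0.18, unadjusted p = 0.00206, limma adjusted p = 0.596). The log2 departure was -0.64 in batch 1 and -0.35 in batch 2. From the authors' deposited fold changes the sum is 4.20 and the value with both 3.59, and on the linear scale both factors give 12.1 against 7.65 for levels that sum. The call on the linear scale was kept in 9 of the 12 fits without 1 library, and was lost without TNFa replicate 2 (limma adjusted p = 0.0729, the largest of these fits), without TNFa+BMP4 replicate 1 and without TNFa+BMP4 replicate 2; it was also lost with no batch term, with no filter on low values and with no variance trend.

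On the deposited log2 values the other members gave smaller departures, none of them called. Fosl2 had -0.06 ± 0.12 on the log2 scale (95% interval -0.31 to 0.18), and its fold of 2.00 with both lay between 1.89 for levels that sum and 2.09 for folds that multiply. Fosl1 had 0.10 ± 0.16 (-0.23 to 0.42), with a fold of 3.08 against 2.67 and 2.88. Fos, with single responses of opposite sign, had -0.17 ± 0.12 (-0.43 to 0.08), and its fold of 1.30 lay below both 1.55 and 1.47. Its linear departure was -0.25 ± 0.11 untreated levels (-0.48 to -0.02), which did not pass after adjustment over all genes (limma adjusted p = 0.842). On the log2 scale the intervals of Jun (-0.23 to 0.16), Jund (-0.24 to 0.24), Fosb (-0.15 to 0.34) and Atf3 (-0.10 to 0.47) also included 0. A value that misses the threshold does not show that the factors add. On the deposited log2 values these intervals leave room for departures of 0.08 to 0.47 log2 units upwards and 0.10 to 0.43 downwards. The authors' deposited fold changes give 0.50 for Fosb and 0.50 for Atf3, each above its interval, and -0.18 for Fos. They give 0.07 for Fosl1, -0.07 for Fosl2, -0.03 for Jun and 0.01 for Jund, beside -0.60 for Junb. Their linear departures ran from -0.56 (Fos) to 0.63 (Fosl1), beside 4.42 for Junb. These values were not tested.

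**Figure D3:**
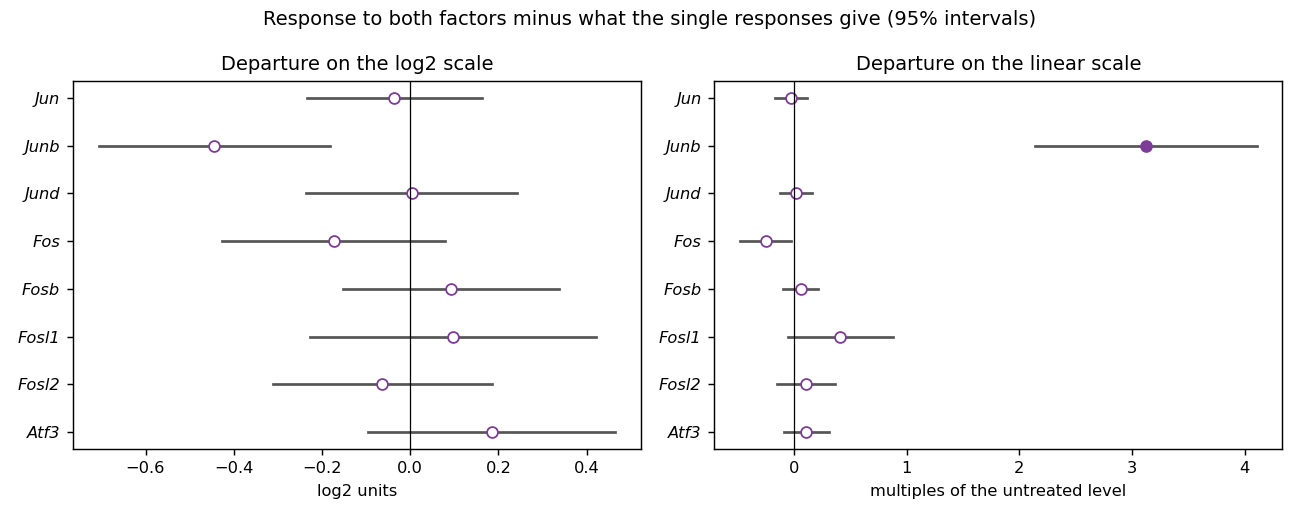
Departure of the response to both factors from the single responses (horizontal axes) on the log2 scale, left, and on the linear scale in multiples of the untreated level, right, with 95% intervals for the 8 genes. Junb is the filled point, the 1 gene that passed an adjusted p of 0.05, at 3.12 on the linear scale and at -0.44, not called, on the log2 scale.

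Because 1 gene of 8 moved by far the most, the make-up of the family changed. Levels were compared between genes after division of the linear value by the exon length of the transcript in kb, and the shares below are descriptions without a test. The transformation behind the log2 values is not named, so shares and rankings hold on this scale and may differ from true abundance. For Fosl1, 68.5% of exon bases are shared with Ccdc85b (mean log2 value 10.47), whose reads may have entered its share. In untreated cells Jund made up 56.7 to 59.3% of the Jun-family sum, Jun 31.2 to 34.2% and Junb 9.06 to 9.50%. Junb reached 27.1 to 33.3% with TNFa, 24.2 to 28.7% with BMP4 and 48.0 to 58.2% with both, when it was the most abundant Jun transcript in each of the 3 libraries. Jund then made up 20.8 to 30.6% and Jun 20.9 to 21.4%. Within the Fos family, where Fosl2 and Fosl1 held most of the sum, the share of Fosl1 was 25.4 to 33.6% untreated, 38.2 to 51.1% with TNFa, 22.5 to 24.6% with BMP4 and 35.7 to 46.6% with both. Fosl2 was the larger of this pair in every group mean, from 61.0 ± 3.9% (SD, n = 3) untreated to 52.0 ± 5.9% with TNFa, and in TNFa replicate 1 Fosl1 was above it. Fos held 8.57 to 9.10% of the Fos-family sum untreated, 8.42 to 12.6% with BMP4, 3.18 to 6.02% with TNFa and 3.44 to 6.64% with both. Fosb stayed under 1.6% throughout. Summed over the Jun family the log2 level per kb went from 11.21 ± 0.31 (SD, n = 3) untreated to 11.94 ± 0.09 with both, and over the Fos family from 8.81 ± 0.05 to 9.97 ± 0.42.

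**Figure D4:**
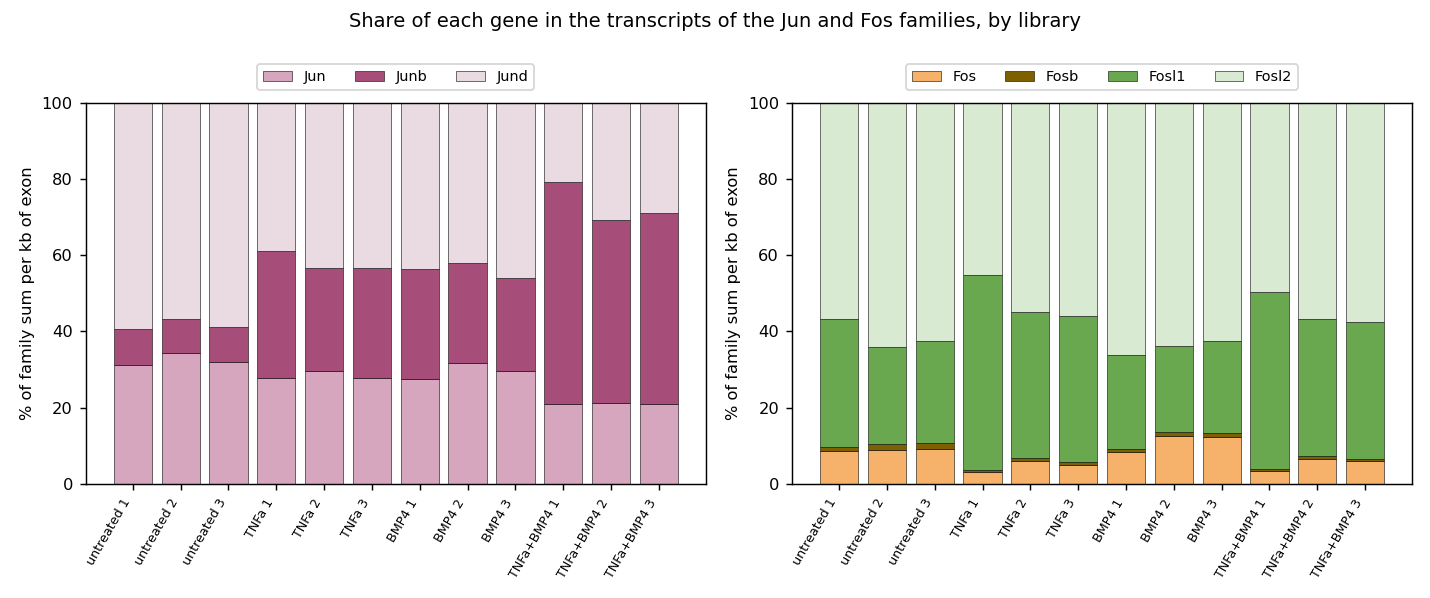
Share of each gene in the summed level per kb of exon (vertical axis, percent) of the Jun family, left, and the Fos family, right, in each of the 12 libraries. Junb takes 9.06 to 9.50% of the Jun family in untreated libraries and 48.0 to 58.2% with both factors.

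Batch moved with the size of these responses. Fosl2 rose with TNFa by 0.82 in batch 1 and 0.39 in batch 2, and with BMP4 by 0.91 and 0.33. For Fosl1 the TNFa change was 1.75 and 1.13, and for Junb it was 2.31 and 1.88, with 1.90 and 1.51 for BMP4. The direction was the same in both batches for each of these. Batch 1 has 1 library per group, so no test was possible within it. A limma test of batch 2 minus batch 1, added after the values were seen, called 2 of the 8 genes for TNFa (1.05% of all genes), 2 for BMP4 (4.68%), 4 for both (5.78%), 2 for TNFa in BMP4-treated cells (3.98%), 0 for BMP4 added to TNFa (1.65%) and 0 for the departure on the log2 scale (0.382%). In each of these last comparisons 2 of the 8, Jund and Fosl2, had an unadjusted p under 0.05 by limma. Fit on batch 2 alone, the calls of Junb, Fosl1, Fosl2 and Fos against untreated cells held, whereas with no batch term only Junb was called for TNFa and only Junb and Fos for BMP4.

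**Figure D5:**
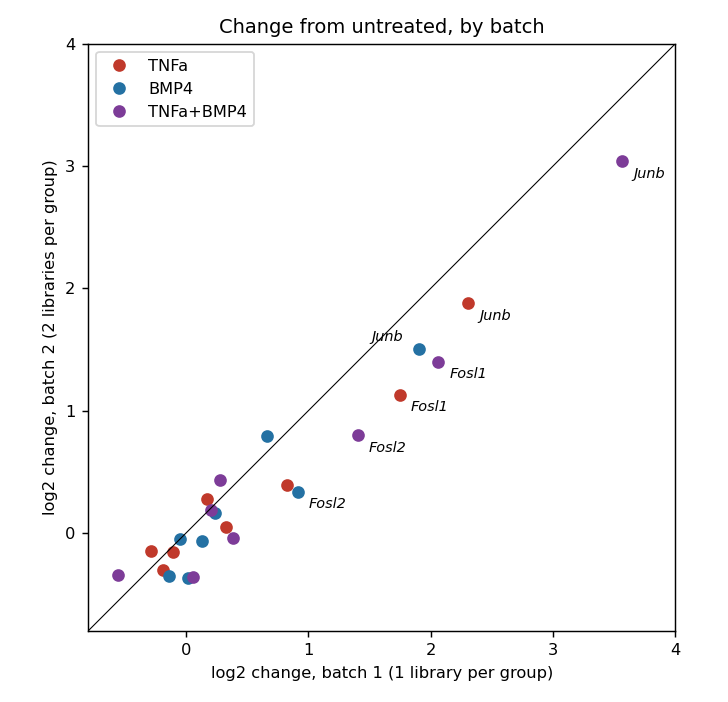
Log2 change from untreated in batch 2 (vertical axis, 2 libraries per group) against batch 1 (horizontal axis, 1 library per group) for the 8 genes and 3 treatments, with the line of equal change. The labelled points of Junb, Fosl1 and Fosl2 lie below the line, as for Fosl2 with both factors at 1.40 in batch 1 and 0.80 in batch 2.

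Related genes of the pathway were described from 4 lists. The lists were chosen with earlier results of these data known, so their counts beside the shares over all genes are descriptions. Of 26 related genes with a basic leucine zipper 22 were tested. TNFa raised 9 of these and lowered 1, BMP4 raised 1 and lowered 1, and both raised 10 and lowered 1. Over all tested genes 9.16% were called higher and 6.32% lower with TNFa, 6.75% and 5.47% with BMP4, and 16.8% and 14.4% with both, so that the BMP4 count of this list was near or below the background. Their median log2 change was 0.13 for TNFa and -0.01 for BMP4. The largest were Maff, a small Maf protein without an activation domain (1.10 ± 0.14 with TNFa, 0.54 ± 0.14 with BMP4, 1.64 ± 0.14 with both), and for TNFa Nfe2l2, the regulator of the antioxidant response (0.86 ± 0.08). Maf, with -0.29 ± 0.08, was the one that BMP4 lowered. Without untreated replicate 1 the BMP4 change of Maff was 0.27 (limma adjusted p = 0.157), and its call was also lost without BMP4 replicate 1 and in batch 2 alone. Without BMP4 replicate 1 Maf stood at -0.19 (limma adjusted p = 0.134), and its call was lost without BMP4 replicate 2 as well. With both factors Cebpb, a regulator of inflammatory genes, rose by 1.00 ± 0.15. Batf, Batf2 and Batf3 were among those below the minimum level.

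Of 27 upstream kinases and serum response factors 24 were tested. TNFa raised 4 and lowered 1, BMP4 raised 3 and lowered 1, and both raised 8 and lowered 3, with medians of 0.06, 0.03 and 0.07. Against the shares over all genes given above (9.16% and 6.32%, 6.75% and 5.47%, 16.8% and 14.4%), the numbers lowered were near or below the background in each comparison. Mapk11, a p38 kinase, rose by 0.72 ± 0.07 with TNFa, and Rps6ka5, a kinase downstream of p38 and ERK, fell by 0.68 (SE 0.08). BMP4 raised Map3k5, which encodes the stress kinase ASK1, by 0.47 ± 0.09 and Elk3, a partner of the serum response factor, by 0.46 ± 0.06. With both factors Map2k3, an activator of p38, rose by 0.72 ± 0.07.

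Among 17 genes with known AP-1 sites 12 were tested, since Mmp3, Mmp10, Mmp13, Il6 and Bglap were below the minimum. TNFa raised 9 of the 12 and lowered 0, BMP4 raised 2 and lowered 2, and both raised 10 and lowered 1, beside 9.16% and 6.32%, 6.75% and 5.47%, and 16.8% and 14.4% of all genes. The median was 0.66 for TNFa, 0.03 for BMP4 and 0.66 for both. Ccl2, a chemokine also known as an NF-kB target, rose by 4.36 ± 0.21 with TNFa and 4.66 ± 0.21 with both. Plau, a plasminogen activator, fell by 0.46 with BMP4 (SE 0.09). Of 18 other immediate-early genes, all tested, TNFa raised 9 and lowered 1, BMP4 raised 8 and lowered 0, and both raised 12 and lowered 1, beside the same shares of all genes and with medians of 0.23, 0.18 and 0.31. Ier3 (0.54 ± 0.10) and Ier2 (0.50 ± 0.08) changed most with TNFa, Klf10 (0.81 ± 0.15) and Btg2 (0.72 ± 0.07) with BMP4, and Klf10 (1.27 ± 0.15) and Ier3 (1.06 ± 0.10) with both. Without BMP4 replicate 1 the BMP4 change of Klf10 was 0.51.

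When BMP4 was added to TNFa, list genes with the largest changes included Maff (0.54 ± 0.14), Elk3 (0.44 ± 0.06), Mapk12, a p38 kinase (-0.39 ± 0.09), Timp1, an inhibitor of matrix proteases (0.77 ± 0.10), Klf10 (0.84 ± 0.15) and Ier3 (0.52 ± 0.10), all called, and Cebpb (0.43 ± 0.15, limma adjusted p = 0.0682), which was not. For TNFa in BMP4-treated cells they included Cebpb (1.22 ± 0.15), Maff (1.10 ± 0.14), Rps6ka5 (-0.86 ± 0.08), Mapk11 (0.75 ± 0.07), Ccl2 (4.56 ± 0.21), Timp1 (1.14 ± 0.10), Ier3 (0.52 ± 0.10) and Klf10 (0.45 ± 0.15), all called. The call of Klf10 in this last comparison held in 8 of 12 fits without 1 library, with 0.18 without TNFa+BMP4 replicate 1 (limma adjusted p = 0.411), and it was lost with the replicate block. Among the changes on adding BMP4 to TNFa, Maff lost its call in 3 of these fits (0.35 and limma adjusted p = 0.149 without TNFa+BMP4 replicate 1) and Mapk12 in 1 (-0.27, limma adjusted p = 0.0759, without the same library). With no batch term, only Elk3 kept its call among those named for BMP4 added to TNFa. Rps6ka5, Mapk11 and Ccl2 did among those for TNFa in BMP4-treated cells. Against untreated cells, Maff and Ier3 then lost their calls with TNFa and Cebpb with both. So did Maff, Maf, Map3k5, Plau and Klf10 with BMP4. The other named list genes kept theirs against untreated cells. No gene of these 4 lists was called for a departure on either scale. Among the list genes with the largest departures, the smallest adjusted p-values were those of Timp1 on the linear scale (0.88 ± 0.18 untreated levels, limma adjusted p = 0.0722) and of Egr1, an immediate-early zinc finger factor, on the log2 scale (-0.41 ± 0.10, limma adjusted p = 0.325). Cebpb had 0.65 ± 0.21 on the log2 scale (limma adjusted p = 0.750) and Egr3 -0.46 ± 0.17 (limma adjusted p = 0.928).

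The genes outside the family whose pattern was most like that of a member were found by Pearson's r over the 12 log2 values after each gene's mean in each batch was taken off. The points share the 4 treatments, so r mostly compares group means, and it is given as a description. For Junb these were Arel1 (0.991), Phc2 (0.988) and Actr3 (0.984). Fosl1 was closest to Ccl7 (0.997), Nfkbia (0.993) and Phlda1 (0.992), the first of which is a chemokine gene and the second the gene of an NF-kB inhibitor. Fosl2 was closest to Clic4 (0.993), Msn (0.990) and Krt16 (0.985), and Fos to Arhgef28 (0.975), Dlx1as (0.972) and Enc1 (0.966). The values were lower for Jund (Mapk8ip1, 0.960; Fam171a2, 0.959; Tanc1, 0.952), Atf3 (Col15a1, 0.933; Abr, 0.931; Tmem192, 0.929), Jun (Mthfd2, 0.923; Wsb1, 0.923; Ube2g2, 0.900) and Fosb (Hspb8, 0.901; Dock9, 0.883; Mesd, 0.882).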

How the data were processed

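Libraries were sequenced with 150 bp paired-end reads, per the labels' protocols. Tools listed without a version, per the submitters' processing notes, are HISAT2, Trim Galore and HOMER, with build mm10. Exonic reads were counted by HOMER, with genes condensed to 1 transcript, and groups were compared with batch as a factor, per the file headers. The authors deposited log2 values per library, not adjusted for batch and by a transformation that is not named, and the authors' log2 fold changes, p-values and adjusted p-values. Exon length in bases is another column of the deposited table. Batch numbers are swapped between header and labels, with the same libraries together, and those of the labels are used.

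The 4 groups and batch were fitted to the log2 values with limma 3.58.1 in R 4.3.3, with 7 residual degrees of freedom and moderated variances that follow a trend with level. The test covered genes whose mean was at least 4, and p-values are two-sided with Benjamini-Hochberg adjustment. The departure on the linear scale came from the same fit by the delta method. The main fit did not pair libraries by replicate number beyond batch. Within batch 2 the correlation of replicate differences between groups ran from 0.02 to 0.164. These low values do not settle whether libraries were paired. The fits were tested on simulated data. Named genes were the 8 members, the 2 genes of each list with the largest change per comparison (for the departures, only 4 of these are printed, and some named items are not reported here), and the 3 genes most like each member. The members and lists were chosen with earlier results of these data known. Figures were drawn with matplotlib 3.10.9. Alternatives were no batch term, a replicate block, batch 2 alone, no filter, no variance trend, quantile normalization, a direct fit of linear values, and each library left out.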

Additional observations from a re-analysis of the deposited data

Results flagged for a closer look

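The size of several responses differed between the batches, by a limma test of the response in batch 2 minus that in batch 1. This test was added after the values were seen, and its spread rests on batch 2, since batch 1 holds 1 library per group (4 residual degrees of freedom). Changes from untreated cells were smaller in batch 2 for Fosl2, by -0.43 with TNFa (adjusted p = 0.00314), -0.58 with BMP4 (adjusted p = 1.84e-05) and -0.60 with both (adjusted p = 3.94e-06). Fosl1 differed by -0.62 with TNFa (adjusted p = 0.0111), by -0.66 with both (adjusted p = 0.00150) and by -0.59 for TNFa in BMP4-treated cells (adjusted p = 0.00760). Junb differed by -0.39 with BMP4 (adjusted p = 0.0400) and by -0.53 with both (adjusted p = 0.00270), and Jun by -0.42 with both (adjusted p = 0.00248). Jund differed the other way, by 0.42 for TNFa in BMP4-treated cells (adjusted p = 0.0229). The comparisons share libraries, among them the 1 untreated library of batch 1, and their limma adjusted p-values are therefore not independent.

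The increase of Junb with TNFa, counted in untreated levels, was larger by 3.12 when BMP4 was present (limma adjusted p = 0.0103), which is the departure on the linear scale given above. On the log2 scale the same libraries gave -0.44, which was not called, so the sign of the departure depends on the scale.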

How the results depend on the processing

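Over all changes and departures of the 8 genes in the alternatives, 925 values kept direction and call. A call was lost in 50 and gained in 10, and 31 changed sign. Many of these values could not change direction, so the tally does not measure how stable directions are. Since each batch held every group, estimates stayed the same with no batch term or a replicate block. They also stayed the same with no filter or variance trend, and when a library outside a pairwise comparison was left out. With no batch term the calls fell from 4 to 1 of 8 for TNFa, from 4 to 2 for BMP4, from 4 to 2 for both factors against TNFa and from 5 to 1 against BMP4. Calls over all genes fell too, from 15.5% to 3.26%, from 12.2% to 0.969%, from 11.7% to 0.892% and from 16.2% to 2.93%. The 1 call on the linear scale went to 0 with no batch term, with no filter and with no variance trend. With no batch term the estimates were the same, as for Fosl1 with TNFa (1.34 in both fits). Its limma adjusted p was 9.83e-09 with the term and 0.0699 without, where differences between batches count as spread. Why the linear call was lost with no filter or no variance trend was not tested.

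Leaving out 1 library gave 3 to 5 calls for TNFa, 3 to 5 for BMP4, 5 to 6 for both (6 with all), 3 to 5 against TNFa, 5 to 6 against BMP4, 0 to 0 for the log2 departure and 0 to 1 for the linear one. In batch 2 alone the sign changed for Jun with both (-0.038), Fosb for both against TNFa (-0.054), Jund for both against BMP4 (0.0030), and the log2 departures of Fosb (-0.0081) and Fosl2 (0.072). With 1 library left out, the sign changed for several values that had not been called. These were BMP4 for Fosb (-0.11 to 0.013) and Jun (-0.10 to 0.088), both against TNFa for Fosb (-0.079 to 0.11) and Jun (-0.12 to 0.015), and the log2 departures of Fosb (-0.033 to 0.16), Fosl1 (-0.047 to 0.25), Fosl2 (-0.15 to 0.12), Jun (-0.13 to 0.064) and Jund (-0.088 to 0.10). The linear departures were those of Fosb (-0.013 to 0.10), Fosl2 (-0.010 to 0.21), Jun (-0.093 to 0.041), Jund (-0.046 to 0.075) and Ccl2 (-0.89 to 7.85, with 4.77 in all libraries). Calls were gained by limma for Jun without untreated replicate 3, with TNFa (adjusted p = 0.0180) and both (adjusted p = 0.0289). Atf3 gained them without BMP4 replicate 1, with TNFa (limma adjusted p = 0.0411) and BMP4 (limma adjusted p = 0.0134). Fosl1 was called for both against TNFa without TNFa replicate 1 (limma adjusted p = 0.0368) or untreated replicate 1, and Fosb for both against BMP4 without TNFa+BMP4 replicate 1 (limma adjusted p = 0.0147).

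With the replicate number as a block in place of batch, the calls were 4, 4, 5, 4, 5, 0 and 1 in the same order; Fosb with both (-0.22) was the call lost. No counts are in the deposited table, so the depth behind a single value, which matters most for Fosb, is unknown.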
